A study of Mus musculus with 8 samples.

Results

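The genes described here are the 7 CDK inhibitors of the INK4 family (*Cdkn2a*, *Cdkn2b*, *Cdkn2c* and *Cdkn2d*) and the CIP/KIP family (*Cdkn1a*, *Cdkn1b* and *Cdkn1c*), chosen by gene symbol, out of 27179 genes counted. All 7 were among the 16658 genes that passed the filter on low counts, which kept a gene with a normalised read count above 0.2 CPM, the unit of counts scaled to library size, in at least 4 libraries. Transcripts were counted in whole uteri of postnatal day (PD) 10 mice, with 1 library per mouse, 4 from *Ezh2 Amhr2*-Cre cKO mice and 4 from controls. Control mice carried homozygous *Ezh2* floxed alleles (*Ezh2* f/f), and cKO mice carried the same alleles together with *Amhr2*-Cre; both genotypes were on a mixed C57BL/6/129SvEv background. *Amhr2*-Cre is active in the mesenchyme derived from the Mullerian duct, so the epithelium of a cKO uterus keeps intact *Ezh2*. A whole-uterus library holds all compartments together, and in such bulk samples fewer cells of a type and less RNA per cell cannot be told apart. The libraries were compared to determine which transcripts differ in the neonatal uterus once mesenchymal *Ezh2* is deleted, at the age when glands begin to form.

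CDK inhibitors are small proteins that hold cells in G1. INK4 proteins bind CDK4 and CDK6 and keep them from D-type cyclins, so that RB stays unphosphorylated and E2F factors stay inactive, whereas CIP/KIP proteins bind cyclin-CDK complexes more broadly, including those of CDK2. EZH2 is a catalytic subunit of Polycomb repressive complex 2, which methylates histone H3 at lysine 27. The *Cdkn2a* and *Cdkn2b* locus is a classical target of this complex in dividing cells. *Cdkn1c* is an imprinted gene expressed from the maternal allele.

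Total counts were 26234429 to 36685807 per control library and 25287141 to 32658315 per cKO library. By the chi-square of their counts per gene, cKO 4 was nearer to control 4 (11.9) and control 3 (14.1) than to cKO 1, cKO 2 and cKO 3 (17.9 to 20.1), and control 2 was as far from controls 3 and 4 (21.3 and 20.9) as from cKO 1 (20.2), so each member called is also given for cKO 4 alone and without each library. *Ezh2* read 49.5, 40.5, 54.7 and 35.4 CPM in controls 1 to 4 and 30.4, 38.0, 40.7 and 38.0 CPM in cKO 1 to 4; the groups overlapped, and the log2 fold change of -0.29 (SE 0.13) did not pass edgeR's quasi-likelihood test with Benjamini-Hochberg adjustment (adjusted p = 0.247). A gene-level count does not resolve the deleted exons, and whether this bears on the *Ezh2* values was not tested. In its own validation the paper reported a recombined *Ezh2* allele and lower *Ezh2* mRNA in cKO uteri. It also reported weaker EZH2 staining in stromal cells but not in epithelial cells. Fat markers summed to 6.64 to 17.4 CPM in controls and 8.51 to 242 CPM in cKO libraries, and the mean log2 CPM of the list was 3.36 to 4.34 in cKO 1, cKO 2 and cKO 3, against -1.07 in cKO 4 and -1.47 to -0.059 in controls. Of 7 fat markers tested of 9, 1 was higher and 6 did not pass. Skeletal muscle markers had a mean log2 CPM of 1.63 to 2.45 in the 4 cKO libraries and 0.83 to 1.46 in controls. Of 7 tested, 3 were higher and 4 did not pass. The summed CPM of the 10 listed overlapped, at 57.3 to 93.8 in controls and 57.5 to 83.5 in cKO libraries. *Acta1*, the marker with the highest mean CPM, read 49.4 CPM in controls and 45.2 CPM in cKO uteri (log2 fold change -0.13). *Myod1*, a defining gene of muscle precursors, was at 0 in all 4 controls and at 0.123 to 0.272 CPM in cKO libraries. Markers of the uterus itself were present in every library: none of 9 epithelial, 7 smooth muscle, 5 endothelial or 5 macrophage markers passed the test, with median log2 fold changes of 0.18, 0.12, 0.19 and -0.12. All 9 epithelial, all 7 smooth muscle and 4 of 5 endothelial values were above 0, and the groups did not overlap for the epithelial keratin gene *Krt19* (0.27, adjusted p = 0.0657 in edgeR). Of 8 stromal markers *Col3a1* was higher while *Hoxa11* and *Amhr2* were lower. The part of fat and skeletal muscle RNA in the differences described here was not tested. Fits with these marker means as a covariate are given beside the differences. The muscle mean separated the genotypes in full, and the fat mean set cKO 1, cKO 2 and cKO 3 apart. Such covariates largely follow genotype and cannot be fully told apart from it, so a call lost in these fits does not measure that part.

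Of the 7 CDK inhibitors, 3 were higher in cKO uteri and none was lower at an adjusted p under 0.05. These were *Cdkn2a*, *Cdkn1c* and *Cdkn1b*, with linear folds of 2.46, 1.28 and 1.18. Across all genes tested, 5.34% were called, 2.62% higher and 2.71% lower in cKO uteri. The other 4 members, *Cdkn2b*, *Cdkn2c*, *Cdkn2d* and *Cdkn1a*, did not pass. When a fold of over 2 was asked for as well, *Cdkn2a* was the 1 member left, where 1.3% of all genes tested met both conditions. Leaving out control 1, control 3, cKO 2 or cKO 3 left 0 members called, with 409, 585, 487 and 540 genes called over the whole table against 889 with all libraries. Leaving out control 4 or cKO 1 left 1 member (655 and 459 genes), and leaving out control 2 or cKO 4 left 2 (964 and 1812 genes).

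**Figure D1:**
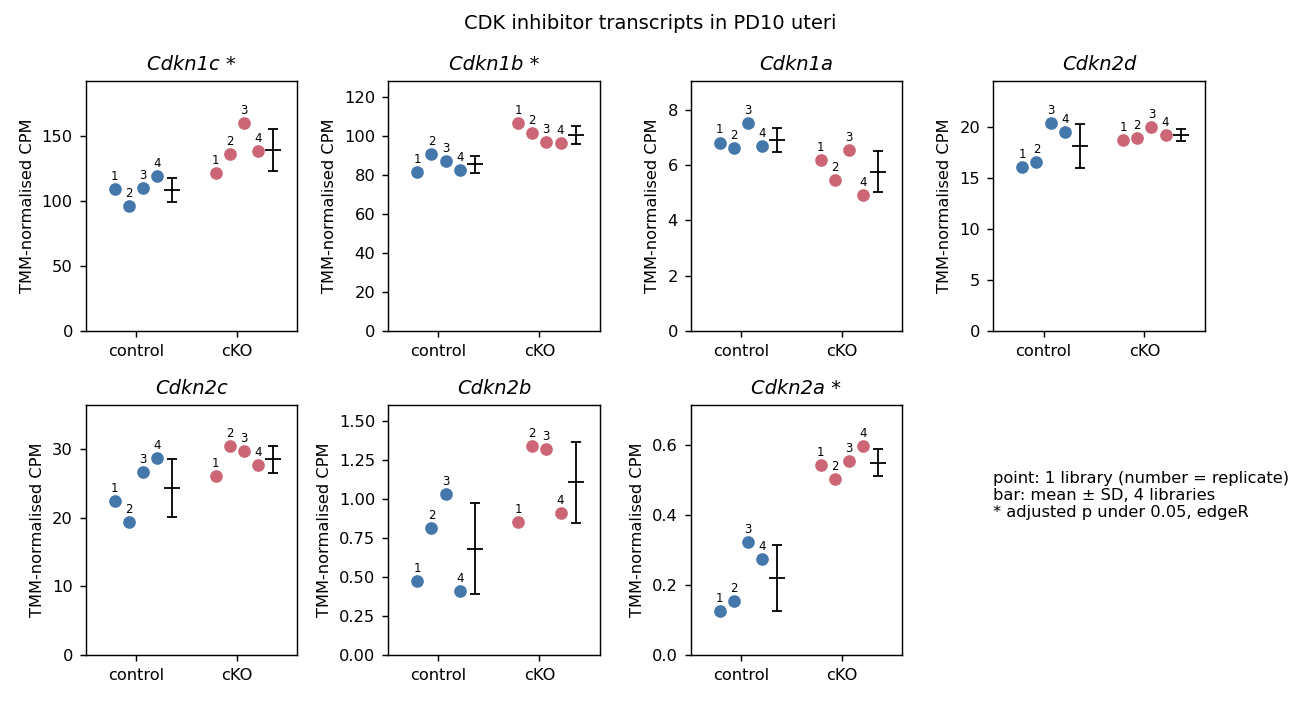
TMM-normalised CPM of each CDK inhibitor (vertical axes, each starting at 0) in the 4 control and 4 cKO libraries; points are libraries numbered by replicate, and bars give the mean ± SD of 4 libraries. For *Cdkn1c*, *Cdkn1b* and *Cdkn2a* all 4 cKO libraries sit above all 4 controls, for *Cdkn1a* all 4 sit below, and for the other 3 genes the groups overlap.

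The INK4 genes *Cdkn2a* and *Cdkn2b* lie next to each other on the minus strand of mouse chromosome 4 (GRCm38.p6), at positions 89274473 to 89294619 and 89306289 to 89311032, with 11669 bases between them. *Cdkn2a* (Entrez 12578) has separate start sites for its p19Arf and p16Ink4a transcripts, which share exons, so that a count per gene cannot tell them apart. p16Ink4a is the CDK4 and CDK6 inhibitor of the locus, whereas p19Arf is a different protein, read in another frame, that protects p53 from MDM2. *Cdkn2b* (Entrez 12579) encodes p15Ink4b, an inhibitor of the same kinases, and lies inside the long noncoding gene *Gm12610*, which was not analysed here. The 250 bases before each of these start sites are given here because they are the stretches the locus is transcribed from, and that of *Cdkn1b*, the other member past the threshold with a RefSeq promoter entry, is given for comparison. They are RefSeq sequences written 5′ to 3′ on the strand of the gene, and capitals mark every match, on either strand, to GGGCGG, the core of a GC box.

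*Cdkn2a*, p19Arf start, minus strand, chr4:89294620-89294869: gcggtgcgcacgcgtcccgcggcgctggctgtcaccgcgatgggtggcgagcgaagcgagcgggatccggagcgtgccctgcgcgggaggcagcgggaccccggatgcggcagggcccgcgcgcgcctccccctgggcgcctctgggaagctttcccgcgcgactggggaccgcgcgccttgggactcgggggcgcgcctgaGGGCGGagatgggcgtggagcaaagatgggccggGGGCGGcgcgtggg
*Cdkn2a*, p16Ink4a start, minus strand, chr4:89282193-89282442: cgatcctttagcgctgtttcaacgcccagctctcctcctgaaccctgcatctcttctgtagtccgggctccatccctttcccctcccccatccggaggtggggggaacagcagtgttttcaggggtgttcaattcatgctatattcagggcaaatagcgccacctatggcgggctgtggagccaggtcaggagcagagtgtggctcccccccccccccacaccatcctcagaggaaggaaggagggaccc
*Cdkn2b*, minus strand, chr4:89311033-89311282: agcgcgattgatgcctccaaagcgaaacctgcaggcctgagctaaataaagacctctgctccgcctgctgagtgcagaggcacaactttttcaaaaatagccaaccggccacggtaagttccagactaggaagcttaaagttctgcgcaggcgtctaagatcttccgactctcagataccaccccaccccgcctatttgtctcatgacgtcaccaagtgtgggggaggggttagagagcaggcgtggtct
*Cdkn1b*, plus strand, chr6:134920151-134920400: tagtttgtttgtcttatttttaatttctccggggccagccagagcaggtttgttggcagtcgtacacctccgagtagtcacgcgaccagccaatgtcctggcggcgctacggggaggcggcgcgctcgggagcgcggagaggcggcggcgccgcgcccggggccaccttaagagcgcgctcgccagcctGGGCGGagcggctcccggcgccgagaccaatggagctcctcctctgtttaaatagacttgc

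The stretch before the p19Arf start held 40 CpG dinucleotides, as many as or more than 98.9% of the 32851 promoters in the table, whose median was 6. By contrast, that before the p16Ink4a start held 7 CpG (57%), that of *Cdkn2b* 12 (68.5%) and that of *Cdkn1b* 28 (93.2%). GGGCGG occurred at 2 places before the p19Arf start and at 1 place before *Cdkn1b*. It occurred in 32.7% of all promoters of this length. Among members not called, it occurred at 3 places before *Cdkn2d*, 3 before the *Cdkn2c* start at 109666756 and 2 before the *Cdkn1a* start at 29093769. These stretches held 16, 29 and 19 CpG. No match lay before the p16Ink4a start, *Cdkn2b* or the other starts of *Cdkn2c* and *Cdkn1a*. TATAAA, the core of a TATA box, was matched in none of the 9 promoter entries that the table held for 6 of the members, and in 12.4% of all promoters. A match is a description of letters, not a site.

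*Cdkn2a* was the member with the fewest reads. It had 4, 4, 9 and 10 counts in controls 1 to 4 and 14, 15, 18 and 17 counts in cKO 1 to 4, which gave 0.126, 0.155, 0.321 and 0.275 CPM against 0.544, 0.502, 0.554 and 0.595 CPM. All 4 cKO libraries were above all 4 controls, and cKO 4, whose fat marker level lay within the range of the controls, was the highest. Controls 1 and 2 were under 0.2 CPM, so *Cdkn2a* met the filter in at least 4 libraries only through the cKO group. Its place among the genes tested is therefore not independent of the difference. The cKO mean of 0.549 ± 0.0384 CPM stood against 0.219 ± 0.0935 CPM in controls (± SD over 4 libraries), with a log2 fold change of 1.30 (SE 0.35, 95% confidence interval 0.55 to 2.05; edgeR's quasi-likelihood test with Benjamini-Hochberg adjustment, adjusted p = 0.0484). In the 2 controls with 4 counts, the exact Poisson intervals of 0.0344 to 0.323 and 0.0422 to 0.396 CPM cover counting error only. This call was close to the threshold and was lost without any 1 of the 8 libraries, with adjusted p from 0.0552 without control 3 to 0.156 without control 1, while the log2 fold change stayed between 1.10 and 1.51. The call was also lost with DESeq2 (adjusted p = 0.0665), and in edgeR without a filter (0.0662) and with the replicate number as a block (0.0534). The log2 fold change was 1.42 for cKO 4 alone against the controls. It was 1.43 with the fat markers as a covariate and 1.17 with the skeletal muscle markers, and neither covariate fit passed the test (adjusted p = 0.298 and 0.673 in edgeR).

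*Cdkn2b* read 0.473, 0.812, 1.03 and 0.412 CPM in controls 1 to 4 and 0.854, 1.34, 1.32 and 0.911 CPM in cKO 1 to 4, from 15 to 43 counts per library. Control 3 was above cKO 1 and cKO 4, so the groups overlapped. The mean of 0.683 ± 0.293 CPM in controls and 1.11 ± 0.260 CPM in cKO uteri gave a log2 fold change of 0.73 (SE 0.32, 95% interval 0.040 to 1.42), which did not pass edgeR's quasi-likelihood test (adjusted p = 0.209). The difference between *Cdkn2a* and *Cdkn2b* in their fold changes was not tested, and their intervals overlapped.

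*Cdkn2c* (Entrez 12580, chromosome 4, 109660876 to 109666756) encodes p18Ink4c, and *Cdkn2d* (Entrez 12581, chromosome 9, 21288459 to 21291421) encodes p19Ink4d. *Cdkn2c* read 22.4, 19.4, 26.7 and 28.7 CPM in controls and 26.2, 30.4, 29.8 and 27.7 CPM in cKO uteri. Controls 1 and 2 were below every cKO library, whereas controls 3 and 4 lay among them. Its log2 fold change was 0.23 (SE 0.11, interval -0.011 to 0.47; adjusted p = 0.258 in edgeR), with means of 24.3 ± 4.22 and 28.5 ± 1.94 CPM (n = 4). *Cdkn2d* read 16.1, 16.5, 20.4 and 19.5 CPM in controls and 18.6, 18.9, 20.0 and 19.2 CPM in cKO uteri, so that the 4 cKO libraries fell within the range of the controls. Its means were 18.1 ± 2.13 and 19.2 ± 0.570 CPM, and its log2 fold change of 0.082 (SE 0.090, interval -0.11 to 0.28) did not pass (adjusted p = 0.637 in edgeR). Both genes had 427 or more counts in every library, so the interval of *Cdkn2d* bounds its change well below that of the *Cdkn2a* estimate.

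**Figure D2:**
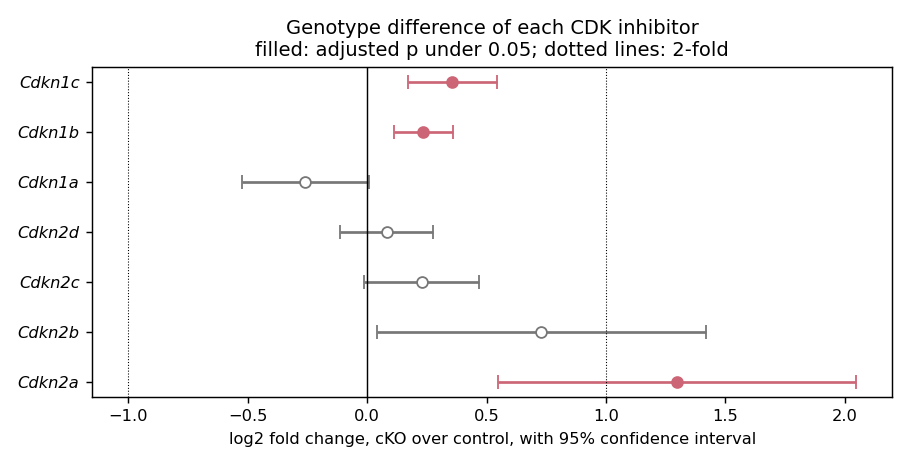
Log2 fold change of cKO over control for each CDK inhibitor (horizontal axis) with its 95% confidence interval from the edgeR fit, filled where the adjusted p was under 0.05. *Cdkn2a* and *Cdkn2b*, the genes with the fewest counts, have the widest intervals, and *Cdkn1a* is the 1 gene with a value below 0.

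Among the CIP/KIP genes, *Cdkn1c* (Entrez 12577, chromosome 7, 143458339 to 143461059, minus strand) encodes p57Kip2, a growth-restraining inhibitor of fetal and neonatal tissues. It read 109, 96.1, 110 and 119 CPM in controls 1 to 4 and 121, 136, 160.0 and 138 CPM in cKO 1 to 4. The groups did not overlap, although control 4 and cKO 1 were close, and cKO 3 was the highest. The cKO mean of 139 ± 16.0 CPM was 28.1% above the control mean of 108 ± 9.38 CPM (± SD over 4 libraries), with a log2 fold change of 0.36 (SE 0.085, interval 0.17 to 0.54; adjusted p = 0.0305 in edgeR). With 2484 or more counts in every library, counting error was smaller than the spread between mice. Its call was lost without control 1 (adjusted p = 0.0913), control 3 (0.0690), cKO 2 (0.0714) or cKO 3 (0.0892) in the same edgeR test, and the log2 fold change was then 0.28 to 0.37. Against the controls, cKO 4 alone gave 0.35, and the fit gave 0.39 with the fat markers and 0.67 with the skeletal muscle markers as a covariate (adjusted p = 0.435, 0.268 and 0.130 in edgeR).

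*Cdkn1b* (Entrez 12576, chromosome 6, 134920401 to 134925525, plus strand) encodes p27Kip1, an inhibitor of cyclin E-CDK2 whose protein level is largely set by degradation. It read 81.3, 90.6, 87.2 and 82.6 CPM in controls 1 to 4 and 107, 101, 97.1 and 96.4 CPM in cKO 1 to 4. Every cKO library was above every control, with cKO 4 the lowest of the cKO libraries. The mean rose from 85.4 ± 4.27 to 100.4 ± 4.76 CPM, a gain of 17.6% with a log2 fold change of 0.23 (SE 0.057, interval 0.11 to 0.36; adjusted p = 0.0331 in edgeR). The call was kept without control 2 or cKO 4 and lost without any other library: adjusted p in edgeR was 0.128 without control 1, 0.0631 without control 3, 0.0947 without control 4, 0.0988 without cKO 1, 0.0845 without cKO 2 and 0.0557 without cKO 3. The log2 fold change was 0.18 for cKO 4 alone, 0.16 with the fat markers and 0.090 with the skeletal muscle markers as a covariate (adjusted p = 0.765, 0.536 and 0.875 in edgeR).

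*Cdkn1a* (Entrez 12575, chromosome 17, 29090979 to 29100722, plus strand) encodes p21Cip1, the p53-induced inhibitor. It read 6.81, 6.61, 7.53 and 6.67 CPM in controls and 6.17, 5.45, 6.53 and 4.90 CPM in cKO uteri. All 4 cKO libraries were below all 4 controls, with a gap of less than 0.1 CPM between cKO 3 and control 2. The means were 6.91 ± 0.422 and 5.77 ± 0.728 CPM, and the log2 fold change of -0.26 (SE 0.12, interval -0.52 to 0.0060) did not pass (adjusted p = 0.247 in edgeR). Counting groups that did not overlap, 4 of 7 members were apart, 3 higher and 1 lower, where 12.3% of all genes tested were apart, 5.9% higher and 6.43% lower.

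Levels were compared between the members per kilobase of exon. In controls the order was *Cdkn1c* at 53.2 ± 4.60 CPM per kilobase, *Cdkn1b* at 18.8 ± 0.937, *Cdkn2d* at 11.5 ± 1.36, *Cdkn2c* at 9.05 ± 1.57, *Cdkn1a* at 1.94 ± 0.119, *Cdkn2b* at 0.491 ± 0.211 and *Cdkn2a* at 0.187 ± 0.0798 CPM per kilobase. Only *Cdkn2d* and *Cdkn2c* overlapped among neighbours in this order. In cKO uteri the order was the same and no neighbours overlapped, with *Cdkn1c* at 68.1 ± 7.83 and *Cdkn2a* at 0.468 ± 0.0328 CPM per kilobase. *Cdkn1c* alone made up 55.9% of the summed level of the 7 genes in controls and 58.8% in cKO uteri, whereas *Cdkn2a*, the member with the largest fold, made up 0.197% and 0.404%. The 4 INK4 genes together held 20.6% to 24.2% of the sum in control libraries and 19.9% to 21.4% in cKO libraries, and these ranges overlapped.

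Genes known to act on the *Cdkn2a* and *Cdkn2b* locus were read next. Of 19 such regulators read here, 3 were higher, none was lower and 16 did not pass, with a median log2 fold change of 0.034 against 0.00044 over all genes tested. *Bmi1*, a subunit of Polycomb repressive complex 1 that represses this locus, read 67.0, 62.1, 64.3 and 65.9 CPM in controls and 104, 124, 122 and 119 CPM in cKO uteri. Each cKO library was far above each control, and cKO 4 was like the others. Its mean rose from 64.8 ± 2.11 to 117 ± 9.06 CPM (log2 fold change 0.85, SE 0.063, adjusted p = 1.48e-05 in edgeR), and it passed in all 22 alternative fits. *Tbx2*, a T-box repressor of *Cdkn2a* and *Cdkn1a*, rose with a log2 fold change of 0.66 (SE 0.098, adjusted p = 0.00179 in edgeR). *Twist1*, a basic helix-loop-helix factor that represses the locus, rose by 0.37 (SE 0.073, adjusted p = 0.0121, and 0.0555 without control 1, in edgeR). For cKO 4 alone, with the fat markers and with the skeletal muscle markers as a covariate, the log2 fold change was 0.36, 0.37 and 0.35 for *Twist1* and 0.40, 0.45 and 0.92 for *Tbx2*, and none of these passed (adjusted p = 0.105 to 0.541 in edgeR).

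The neighbours of *Cdkn2a* and *Cdkn2b* on chromosome 4 did not pass. Of 6 listed, *Dmrta1*, *Ifna1* and *Ifnb1* were under the filter. *Mtap*, an enzyme of methionine salvage, had a log2 fold change of -0.090 (adjusted p = 0.449), *Klhl9*, a ubiquitin ligase adaptor, of -0.11 (adjusted p = 0.336) and *Elavl2*, an RNA-binding protein gene, of -0.49 (adjusted p = 0.308), all in edgeR. Each of these 3 values lay on the other side of 0 from those of *Cdkn2a* and *Cdkn2b*, and their difference from them was not tested.

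*Cdkn1c* lies in the imprinted domain controlled by the noncoding RNA *Kcnq1ot1*. Of 12 neighbours tested in that domain, 1 was higher, 1 was lower and 10 did not pass, with a median log2 fold change of 0.00049. *Trpm5*, a cation channel gene, rose by 0.27 (SE 0.057, adjusted p = 0.0165 in edgeR), a call lost without control 4, cKO 2 or cKO 3 at up to 0.0559. It was also lost for cKO 4 alone and with the fat or the skeletal muscle markers as a covariate, at log2 fold changes of 0.22, 0.22 and 0.38 (adjusted p = 0.606, 0.337 and 0.341 in edgeR). *Ascl2*, a basic helix-loop-helix factor of the placenta, fell from 0.689 ± 0.0357 to 0.308 ± 0.117 CPM (log2 fold change -1.18, SE 0.31, adjusted p = 0.0471 in edgeR), and this call was lost in 7 of 8 fits that left out a library, at up to 0.130. It was also lost with DESeq2 (adjusted p = 0.0581) and in edgeR with library size scaling alone (0.0523), without a filter (0.0576), for cKO 4 alone (0.566) and with the fat (0.404) or the skeletal muscle markers (0.465), at log2 fold changes of -1.76 to -1.16. *Kcnq1ot1* itself read 7.37 ± 0.627 and 7.75 ± 0.783 CPM, a log2 fold change of 0.073 (SE 0.11, adjusted p = 0.754 in edgeR). *Slc22a18*, an imprinted transporter gene, had a value of 0.25 (adjusted p = 0.279) and *Tnfrsf23*, a decoy receptor gene, of 0.42 (adjusted p = 0.247 in edgeR). The other 7 neighbours, *Osbpl5*, *Kcnq1*, *Cars*, *Cd81*, *Tssc4*, *Nap1l4* and *Phlda2*, had log2 fold changes between -0.11 and 0.028 (adjusted p = 0.249 to 0.999 in edgeR).

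**Figure D3:**
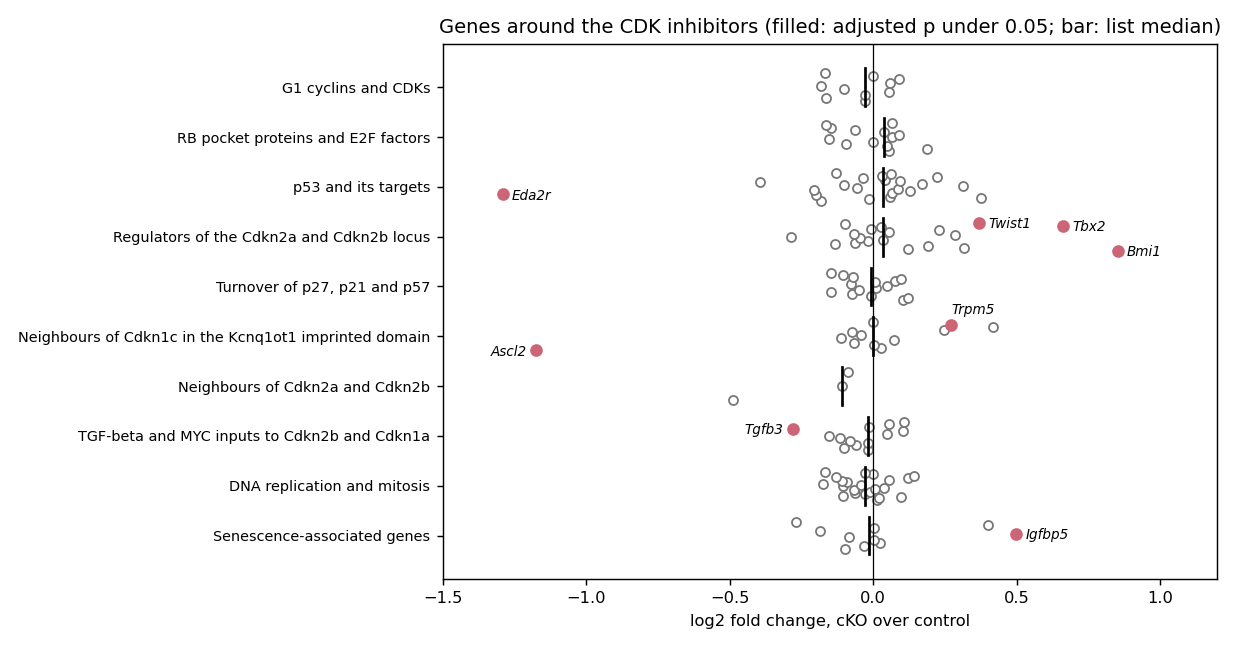
Log2 fold change of cKO over control (horizontal axis) for the tested genes of 10 lists around the CDK inhibitors; each point is a gene, filled and named where the adjusted p was under 0.05, and a bar marks the median of each list. All 10 medians lie between -0.11 and 0.037, and *Bmi1* and *Eda2r* lie farthest from 0 on the higher and the lower side.

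The kinases and cyclins that the members act on did not pass the test. Of 10 G1 cyclins and CDKs none was called, and their median was -0.029. *Ccnd1*, cyclin D1, read 255 ± 12.1 CPM in controls and 227 ± 18.8 CPM in cKO uteri (log2 fold change -0.17, adjusted p = 0.175 in edgeR), and *Cdk6*, its kinase partner, had a log2 fold change of -0.17 (SE 0.12, adjusted p = 0.433). Likewise, none of 13 RB pocket protein and E2F genes passed (median 0.037), the smallest p-values being those of *Rbl2*, the gene for the pocket protein p130, at -0.15 (adjusted p = 0.185) and of *Tfdp1*, a dimer partner of E2F factors, at -0.17 (adjusted p = 0.217 in edgeR, and 0.0391 at a log2 fold change of -0.24 without cKO 4). Of 22 DNA replication and mitosis genes, which E2F activity drives, none passed either (median -0.030). Their log2 fold changes ranged from -0.17 to 0.14, with *Mcm4*, a subunit of the replicative helicase, at -0.17 (SE 0.090, adjusted p = 0.291) and *Mcm6*, another, at -0.11 (SE 0.093, adjusted p = 0.534 in edgeR). The mean log2 CPM of this list was 5.88 to 6.47 in controls and 6.10 to 6.29 in cKO libraries, so that the cKO range lay within that of the controls. With this mean as a covariate 4 members were called, *Cdkn2c* being the addition (log2 fold change 0.26, adjusted p = 0.0444 in edgeR), and calls over all genes went from 889 to 1609 in the same fit.

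Inputs to the CIP/KIP genes were read in the same way. Of 22 genes of p53 and its targets, the route to *Cdkn1a* induction, 1 was lower and 21 did not pass (median 0.035). The lower gene was *Eda2r*, a p53-induced receptor of the TNF receptor family, at 52.6, 53.2, 41.2 and 39.9 CPM in controls and 16.4, 19.6, 15.1 and 25.3 CPM in cKO uteri. The groups were well apart, with cKO 4 the closest to the controls (log2 fold change -1.29, SE 0.16, adjusted p = 0.00144 in edgeR). *Perp*, a p53 target of epithelial cell junctions, had a value of 0.31 and did not pass (adjusted p = 0.0718 in edgeR), although its groups did not overlap. It passed with DESeq2 (adjusted p = 0.0298) and in edgeR without cKO 2 (0.0489) and with the replication and mitosis markers as a covariate (0.0396). None of 15 tested genes for the turnover of p27, p21 and p57 passed (median -0.0083), and the smallest p-values were those of *Cul1*, a ubiquitin ligase scaffold, at -0.15 (adjusted p = 0.169) and *Ubac1*, a partner of a ligase for p27, at -0.15 (adjusted p = 0.190 in edgeR). Of 13 TGF-beta and MYC genes that feed into *Cdkn2b* and *Cdkn1a*, *Tgfb3*, a TGF-beta ligand, fell by 0.28 on the log2 scale (SE 0.053, adjusted p = 0.00917 in edgeR), and 12 did not pass, among them *Sp1*, a GC-box factor, at -0.15. The list's median was -0.018.

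Genes often measured beside *Cdkn2a* as marks of senescent cells were also read. Of 10 tested of 12, 1 was higher and 9 did not pass, with a median of -0.015, and *Il6* and *Cxcl1* were under the filter. The higher gene was *Igfbp5*, an insulin-like growth factor binding protein that stromal cells also secrete, at 2434 ± 199 CPM in controls and 3440 ± 204 CPM in cKO uteri (log2 fold change 0.50, SE 0.072, adjusted p = 0.00154 in edgeR). *Igfbp7*, a related secreted protein gene, had a value of -0.19 and did not pass (adjusted p = 0.122 in edgeR). Among the alternative fits it passed only with the replication and mitosis markers as a covariate. *Eda2r*, *Tgfb3* and *Igfbp5* passed without any 1 library. For cKO 4 alone, with the fat markers and with the skeletal muscle markers as a covariate, the log2 fold change was 0.46, 0.47 and 0.42 for *Igfbp5*, -0.24, -0.25 and -0.23 for *Tgfb3* and -0.88, -1.02 and -1.47 for *Eda2r*, and none of these passed (adjusted p = 0.0713 to 0.599 in edgeR).

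For the 3 members called, the genes whose log2 CPM ran most closely with theirs over the 8 libraries were sought among 14456 genes, as a description without a test. The values share the libraries' depths and genotype, so r was also taken after removing each group's mean. Closest to *Cdkn1c* were *H19* (r = 0.980, and 0.939 without group means), *Tmem209* (0.972 and 0.917) and *Mest* (0.972 and 0.949). *H19*, a noncoding RNA, rose from 1074 to 1394 CPM (log2 fold change 0.38, adjusted p = 0.0235 in edgeR), a call that was lost without control 1, control 3, cKO 2 or cKO 3 (up to 0.0801). *H19*, chosen for its likeness to *Cdkn1c* over the same libraries, also did not pass for cKO 4 alone or with the fat or the skeletal muscle markers as a covariate, at log2 fold changes of 0.44, 0.47 and 0.63 (adjusted p = 0.284, 0.127 and 0.208 in edgeR). Closest to *Cdkn1b* were *Hid1* (0.983 and 0.928), *Ahnak2* (0.983 and 0.942) and *Mindy1* (0.977 and 0.917). Closest to *Cdkn2a* were *Arhgef4* (0.990 and 0.956), *Slc26a4* (0.972 and 0.899) and *Crabp1* (0.970 and 0.857), the last a retinoic acid binding protein gene. With 4 to 18 counts per library, the *Cdkn2a* values carry a large counting error into these r.

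**Figure D4:**
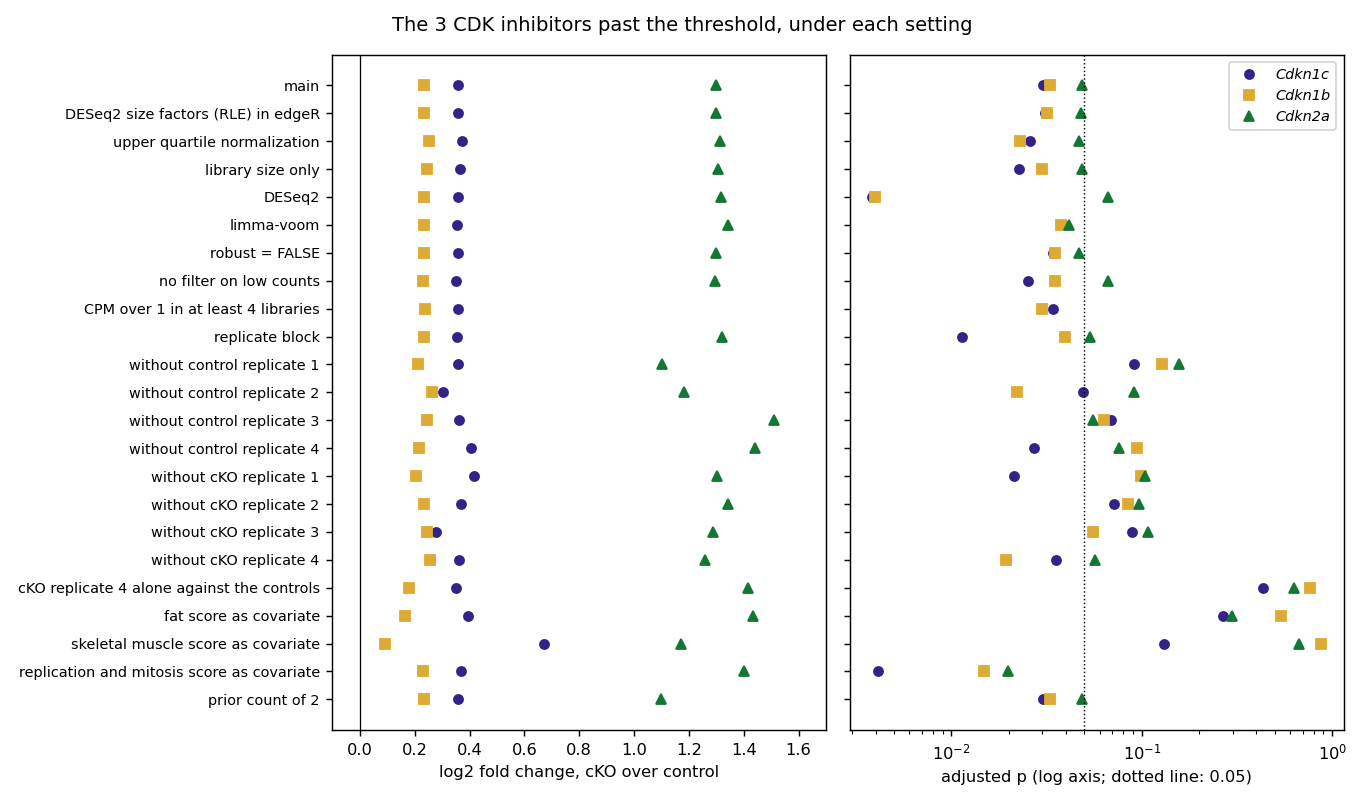
Log2 fold change (left, linear axis) and adjusted p (right, log axis, dotted line at 0.05) of *Cdkn1c*, *Cdkn1b* and *Cdkn2a* in the reported fit and in each alternative fit. All log2 fold changes stay above 0, while the adjusted p crosses 0.05 in several fits, with the largest p-values for cKO 4 alone and for the fat and skeletal muscle marker covariates.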

How the data were processed

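TruSeq stranded mRNA libraries were sequenced from PD10 whole uteri, 4 per genotype. The authors trimmed reads with Trimmomatic, checked them with FastQC, aligned them to GRCm38 with HISAT2 and deposited raw counts per Entrez gene from featureCounts, 1 table per library. The strand setting, the annotation release and the treatment of reads with several alignments are not given in the sources used here, so reads of overlapping genes may be shared. The deposited comparison table was used only to pair 25440 of 27179 gene IDs with symbols; its fold changes and p-values were not used, nor were 8 columns of normalized values.

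Counts were tested with edgeR 4.0.16 (R 4.3.3) using TMM factors, a filter of CPM over 0.2 in at least 4 libraries, robust quasi-likelihood fits on genotype and Benjamini-Hochberg adjustment over 16658 genes, after the study's settings. A gene was called at an adjusted p under 0.05; the study also asked for a fold over 2, which is given here as an alternative. The procedure was tested on simulated data. Limma 3.58.1 (voom), DESeq2 1.42.0, other scaling, other filters, marker covariates, a replicate block and leaving out each library were tried as alternatives. CPM are relative to the TMM-scaled library size, and 3 counts correspond to 0.0818 to 0.119 CPM, which covers counting error only. Levels per kilobase used GENCODE vM21 exon lengths, and coordinates and promoters came from RefSeq for GRCm38.p6. No library repeated another, and the labels name no batch. The edgeR p-values set the difference between genotypes against the spread between these mice, with each gene's spread drawn towards that of other genes.

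The 7 members and all gene lists were chosen with earlier results of these data known. Named were the members, *Ezh2*, up to 4 called genes of each list by p (the 2 with the smallest p where fewer than 2 were called), the chromosomal neighbours, *Eda2r*, and the 3 genes most like each of the 3 members with the smallest p; epithelial, stromal and muscle markers were named after their values were seen. The qRT-PCR and imaging data were not analysed here. 1 gene of the list of *Cdkn2a* and *Cdkn2b* regulators is not reported here, and the counts of that list leave it out.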

Additional observations from a re-analysis of the deposited data

How the results depend on the processing

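No member changed direction in any of the 22 alternatives that kept it in the test. Genes called numbered 889, against 1510 with DESeq2, 1609 with the replication and mitosis markers as a covariate, 121 with the fat markers, 7 with the skeletal muscle markers, 38 for cKO 4 alone, 217 at a fold over 2, and 409 (without control 1) to 1812 (without cKO 4) when 1 library was left out. Members called numbered 3, against 0 with the fat or the skeletal muscle markers and 1 at a fold over 2. With DESeq2, without a filter or at CPM over 1 (5 members tested) 2 were called, and 0 to 2 when 1 library was left out. The mean log2 CPM of the muscle markers was higher in all 4 cKO libraries than in any control, while their summed CPM overlapped. That of the fat markers was higher in cKO 1, cKO 2 and cKO 3. These covariates therefore cannot be fully told apart from genotype. The fit of cKO 4 alone rests on 1 mouse assumed to vary like the controls. *Cdkn2a* missed the threshold with DESeq2 (adjusted p = 0.0665) and without a filter (0.0662 in edgeR). Log2 fold changes crossed 0 for *Ezh2* (0.13 with the skeletal muscle markers), and for cKO 4 alone and with the fat markers for *Tfdp1* (0.027 and 0.014), *Klhl9* (0.044 and 0.038) and *Mcm6* (0.072 and 0.11), and with the fat markers for *Mcm4* (0.011); none of these genes had been called, and the cause was not tested. Same-numbered libraries deviated together with correlations of -0.00026 to 0.190, and only those numbered 4 correlated best with their own number, so the labels' numbers were not taken as pairs. With the replicate block 1240 genes and 2 members were called, *Cdkn2a* at an adjusted p of 0.0534, *Ascl2* at 0.0547 and *Perp* at 0.0293 in edgeR. Depth limits *Cdkn2a* and *Cdkn2b*, with 4 to 43 counts per library.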
